A study of Mus musculus with 12 samples.

Results

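The 9 genes described here act around the decision of an injured sensory neuron to live, to degenerate or to regrow. They are the stress kinases Map3k12 and Map3k13, the BCL2 family members Hrk, Bbc3, Bcl2l11, Bax and Bcl2, the axon degeneration gene Sarm1 and the injury-induced endopeptidase Ecel1. They were chosen by name with earlier results of these data known, so counts of them beside all genes are a description. All 9 were among the 44345 gene names of the count table and among the 16238 genes that passed the filter on low counts. The study asked how an enriched environment (EE) before sciatic nerve axotomy (SNA) alters sensory neurons of the dorsal root ganglia (DRG). C57BL/6 mice of 5 to 8 weeks lived for 10 days in standard housing (SH) or in EE and then had either SNA or sham surgery, and the ganglia that feed the sciatic nerve were taken 24 h later. RNA of whole sciatic DRG was sequenced in 12 samples, 3 each for the Sham groups of both housings (SH Sham, EE Sham) and the axotomised groups (SH SNA, EE + SNA), and each sample pooled 2 mice. The paper refers to EE Sham as a dataset described before, and the labels name no batch, so a difference in preparation and the EE Sham group cannot be told apart. The labels name no transgene or test compound for these groups, and by the methods isoflurane anaesthesia and the analgesics buprenorphine and carprofen were part of every surgery, Sham included. Because the ganglia were taken whole, fewer neurons and less RNA per neuron cannot be told apart in any value below.

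When an axon is cut, DLK (the product of Map3k12) and its close relative LZK (Map3k13) carry a stress signal back to the cell body through JNK, and this signal can drive both regeneration genes and cell death. Death by the mitochondrial route is set by the BCL2 family. BH3-only proteins such as DP5 (Hrk), PUMA (Bbc3) and BIM (Bcl2l11) disable guardians such as BCL2, after which BAX opens the outer mitochondrial membrane. SARM1 acts in the axon itself, where it breaks down NAD and executes degeneration. Ecel1, also called DINE, is a membrane endopeptidase of the neprilysin family that is known for its induction in injured neurons.

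Several of these promoters are shown because Bcl2 fell and Bbc3 rose after SNA over both housings, and JNK, FOXO and p53 are textbook regulators of the family. The sequences are from RefSeq on GRCm38.p6 and run 5′ to 3′ on the strand of the gene, with the motif in capitals. Motifs were searched on both strands in the 250 bases before each of 13 starts listed for the 9 genes. The pentamer TGACG is the core of the CRE (TGACGTCA) and so contained in it. It was found in 4 of the 13 promoters, those of Bbc3, Bcl2, Hrk and Sarm1, and in 17.8% of 32851 promoters of all genes. That share was not matched for base content. The windows with the match in Bcl2, Bbc3, Hrk and Sarm1 were 74.8%, 76.4%, 63.2% and 60.8% G and C, beside a median of 52.4% over all promoters. The lines below give the windows of Bcl2 (chr1:106714368-106714422, minus strand) and Bbc3 (chr7:16309503-16309557, plus strand).
Bcl2, TGACG: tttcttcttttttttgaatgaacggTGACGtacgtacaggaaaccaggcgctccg
Bbc3, TGACG on the other strand: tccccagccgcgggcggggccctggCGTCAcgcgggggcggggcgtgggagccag

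The FOXO heptamer GTAAACA was found in 2 of the 13 promoters, 1 of Bcl2l11 (chr2:128125788-128125842, plus strand) and a second start of Bbc3 (chr7:16310069-16310125, plus strand), and in 3.17% of all promoters. A p53 half-site, of which a full element holds a pair, was found in 1, that of Bax (chr7:45467065-45467124, minus strand), and in 7.13% of all promoters. The AP-1 site (TGACTCA or TGAGTCA) was in none of the 13 and in 4.46% of all promoters, and the full CRE was in none of the 13 and in 1.55%. These matches are letters in a window and say nothing of binding in these ganglia.
Bcl2l11, FOXO: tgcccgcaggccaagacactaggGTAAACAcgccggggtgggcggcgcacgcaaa
Bbc3, FOXO on the other strand: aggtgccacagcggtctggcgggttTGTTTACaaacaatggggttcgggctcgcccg
Bax, p53 half-site: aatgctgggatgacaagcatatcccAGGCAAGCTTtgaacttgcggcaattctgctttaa

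Reads assigned to genes numbered 11343579 to 22871460 per sample, with a median of 12769394, and the deepest was EE + SNA replicate 2. Of all reads tallied, 46.7% to 47.6% per sample fell on no annotated gene, and the cause was not tested. The axotomy labels held in every sample. Atf3, the classical axotomy-induced transcription factor, was at 109.9 to 167.8 CPM (read counts scaled to a common library size) in the 6 Sham samples and at 453.7 to 548.6 CPM in the 6 SNA samples. All 10 sensory neuron markers were detected, and their summed level was 9600 to 10800 CPM in Sham and 9120 to 9840 CPM in SNA. A pair of libraries stood apart in marker genes of other cell types. SH SNA replicate 2 held 750 CPM of 5 skeletal muscle genes against 2.46 to 135 CPM in the others, and EE + SNA replicate 3 held 718 CPM of 7 neutrophil genes against 68.6 to 306 CPM.

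Per gene length, the 9 genes spanned a wide range in SH Sham. By the authors' FPKM, Bax was the highest at 22.8, followed by Map3k12 at 14.2, Bcl2 at 8.77 and Sarm1 at 7.51. Map3k13 was at 2.36, Bbc3 at 1.69, Ecel1 at 1.56 and Bcl2l11 at 0.639, and Hrk was the lowest at 0.170. Of the neighbours in this order, Bbc3 and Ecel1 had samples that overlapped, at 1.34 to 2.09 and 1.20 to 1.82 FPKM, while those of Bcl2, at 8.64 to 8.90, lay above those of Sarm1, at 6.60 to 8.17. Among the 16020 genes that passed the filter and had an FPKM, Hrk was above 1.62% and rested on 7 to 22 reads per sample, and Bax was above 83.1%.

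After SNA in standard housing, 2 of the 9 genes changed past a Benjamini-Hochberg adjusted p of 0.05 in edgeR's quasi-likelihood test, against 11.2% of all genes tested. Bcl2 fell and Ecel1 rose. The unadjusted threshold of the study was also applied to this quasi-likelihood test, while the study used a likelihood ratio test. At that threshold 3 of 9 were called, with Map3k12 lower, against 25.2% of all genes. The same 3 genes had SNA samples that did not overlap with the Sham samples, as did 29.4% of all genes. Under EE, the comparison of EE + SNA with EE Sham called 2 of 9, Bcl2 and Map3k13, both lower, against 4.83% of all genes. With Bbc3 higher, 3 of 9 passed the unadjusted threshold against 20.6%, and 4 of 9 did not overlap against 25.8%. Over all 12 samples with housing as a term, which share their data with both comparisons, 4 of 9 passed the adjusted threshold against 22.4%. These were Bbc3 and Ecel1, higher, and Bcl2 and Map3k13, lower, and the same 4 were called at the unadjusted threshold, where 34.7% of all genes were. All 4 adjusted calls were kept without SH SNA replicate 2 (adjusted p up to 0.0158) and without EE + SNA replicate 3 (up to 0.0493). These libraries held the muscle and the neutrophil genes. The call of Bbc3 was lost when some other single samples were left out, as given below.

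**Figure D1:**
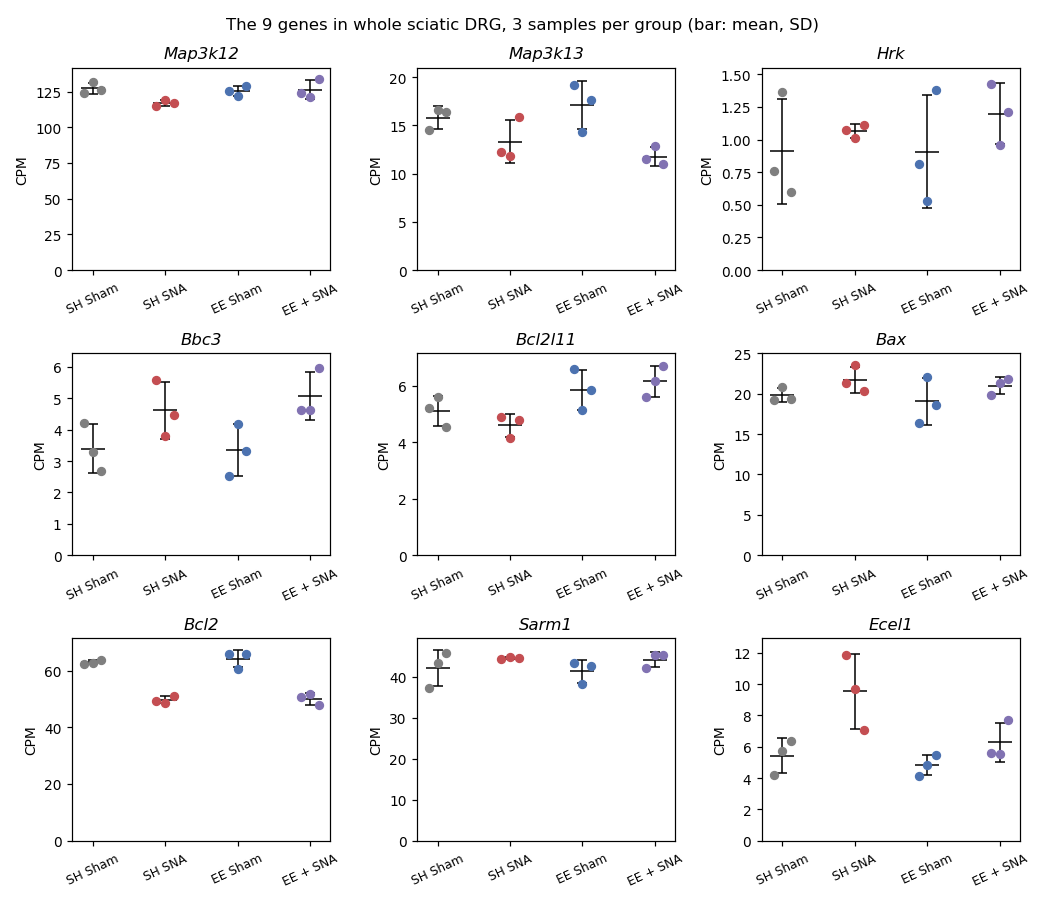
Level of each of the 9 genes (vertical axes in CPM, from 0) in the 4 groups. Points are the 3 samples of a group, the bar is their mean and the whiskers the SD. The 6 SNA samples of Bcl2 lie at 47.7 to 51.7 CPM, below all 6 Sham samples, and the highest mean of Ecel1, 9.55 CPM, is that of SH SNA.

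Map3k12 encodes DLK, the kinase that senses axon damage, and lies on chr15:102497646-102517064 (GRCm38, minus strand). It was the most abundant of the 9 by reads, at 124.1, 131.8 and 126.0 CPM in SH Sham and 115.1, 118.9 and 116.7 CPM in SH SNA. The groups did not overlap, and the SH SNA samples were the lowest of the experiment. The log2 fold change was -0.12 (SE 0.052), with an unadjusted p of 0.0383 and an adjusted p of 0.17 in edgeR's test. EE Sham was at 125.6, 121.8 and 128.9 CPM and EE + SNA at 123.7, 121.2 and 134.1 CPM, which overlapped, and the log2 fold change between them was 0.0024 (95% interval -0.14 to 0.14). EE + SNA samples were all above SH SNA samples, by a log2 fold change of 0.11 (SE 0.057) that missed the unadjusted threshold in edgeR's test (unadjusted p = 0.0767). Of the 8989 exon bases of Map3k12, 1732 are shared with Pcbp2 and Gm10337 on the other strand, and whether the counting used strand is not given in the sources used here.

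Map3k13, which encodes LZK, the relative that can stand in for DLK in injured neurons, lies on chr16:21794346-21933439 (plus strand). It was at 14.5, 16.6 and 16.4 CPM in SH Sham and at 12.2, 11.8 and 15.8 CPM in SH SNA. Replicate 3 of SH SNA lay within the Sham range, and the log2 fold change of -0.25 (SE 0.12) did not pass (adjusted p = 0.241). Under EE, the Sham samples were at 19.2, 14.3 and 17.6 CPM and the SNA samples at 11.5, 12.8 and 11.0 CPM. These groups did not overlap, and Map3k13 fell by 0.53 on the log2 scale (SE 0.12), with an adjusted p of 0.0317 in edgeR's quasi-likelihood test. Against SH Sham the EE + SNA samples were also all lower, at a log2 fold change of -0.42 (SE 0.11, adjusted p = 0.0223). Over both housings the log2 fold change was -0.38 (SE 0.095), with an adjusted p of 0.0071. The difference between the housings in the response to SNA was -0.28 on the log2 scale (95% interval -0.66 to 0.11, unadjusted p = 0.151 in edgeR's interaction test), so the call under EE alone does not show that the housings differ. Of its 8714 exon bases, 227 are shared with 1300002E11Rik on the same strand. The EE call depended on single libraries. Without EE Sham replicate 1 the log2 fold change was -0.44 (adjusted p = 0.108), without EE Sham replicate 3 it was -0.51 (0.123), and without EE + SNA replicate 1 or 3 it was -0.51 (0.11) or -0.48 (0.0902). Against SH Sham the adjusted p was 0.0760 and 0.0611 when replicate 1 or 3 of EE + SNA was left out, and 0.0784 and 0.0692 when replicate 2 or 3 of SH Sham was.

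Hrk, or DP5, is a BH3-only gene known for its induction by JNK in neurons deprived of trophic support. It was counted at 13, 19 and 9 reads in SH Sham, 14, 12 and 14 in SH SNA, 9, 7 and 17 in EE Sham, and 16, 22 and 15 in EE + SNA. All 4 groups overlapped in CPM. The log2 fold change after SNA was 0.25 in SH (95% interval -0.52 to 1.02) and 0.35 in EE (95% interval -0.47 to 1.18), and neither passed.

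Bbc3, which encodes PUMA, a potent inducer of cell death under p53 and FOXO control, was at 4.22, 3.30 and 2.67 CPM in SH Sham and at 5.58, 3.80 and 4.46 CPM in SH SNA. The lowest SNA sample lay within the Sham range, and the log2 fold change of 0.44 (SE 0.21) missed both thresholds (unadjusted p = 0.0558 in edgeR's test). EE Sham was at 2.53, 4.17 and 3.33 CPM and EE + SNA at 4.63, 4.61 and 5.96 CPM, which did not overlap. The log2 fold change there was 0.57 (SE 0.21), with an unadjusted p of 0.0188 and an adjusted p of 0.147 in edgeR's test. Over both housings Bbc3 rose by 0.51 on the log2 scale (SE 0.15), with an adjusted p of 0.0206 in edgeR's quasi-likelihood test. That call was lost without SH SNA replicate 1 (log2 fold change 0.44, adjusted p = 0.0611), without EE Sham replicate 1 (0.42, adjusted p = 0.0526) and without SH Sham replicate 3 (0.45, adjusted p = 0.0515). Only 28 to 106 reads per sample stood behind these values.

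Bcl2l11, which encodes BIM, a BH3-only protein that binds every pro-survival member, did not pass in either comparison of SNA with Sham. It was at 5.22, 5.60 and 4.55 CPM in SH Sham, 4.89, 4.14 and 4.78 in SH SNA, 6.59, 5.16 and 5.85 in EE Sham, and 5.61, 6.18 and 6.69 in EE + SNA. The log2 fold change was -0.15 (95% interval -0.48 to 0.18) after SNA in SH and 0.07 (95% interval -0.26 to 0.40) after SNA in EE.

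Bcl2 was the 1 of the 9 that passed the adjusted threshold in both housings. The gene encodes the founding anti-death protein of the family and lies on chr1:106538178-106714274 (minus strand). It was at 62.4, 62.6 and 63.9 CPM in SH Sham and at 49.2, 48.7 and 51.1 CPM in SH SNA. Under EE it was at 66.0, 60.7 and 65.7 CPM in Sham and at 50.8, 51.7 and 47.7 CPM after SNA. Every SNA sample was below every Sham sample, 6 against 6, a separation that 11.1% of all genes also had. Bcl2 fell by 0.34 on the log2 scale in SH (SE 0.057, adjusted p = 0.0022) and by 0.36 in EE (SE 0.068, adjusted p = 0.010), both in edgeR's quasi-likelihood test. Over both housings the log2 fold change was -0.35 (SE 0.039), with an adjusted p of 5.31e-06, which stands for a level 0.786 times that in Sham. The response in EE differed from that in SH by -0.012 on the log2 scale (95% interval -0.19 to 0.16). The call in EE was lost without EE Sham replicate 3, where the log2 fold change was -0.35 and the adjusted p 0.0645. Without the library with the muscle genes (SH SNA replicate 2) the log2 fold change in SH was -0.33 (adjusted p = 0.0112), and without the library with the neutrophil genes (EE + SNA replicate 3) it was -0.32 in EE (adjusted p = 0.0367). Of the 9157 exon bases of Bcl2, 558 are shared with D630008O14Rik on the other strand.

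Of the 10 sensory neuron markers, 3 (Isl1, Nefh and Rbfox3) fell past the adjusted threshold in SH, where the median log2 fold change of the list was -0.19, and 1 (Isl1) fell in EE, where it was -0.12. Over both housings 5 of the 10 fell past it and 0 rose. The list summed to 9910 to 10800 CPM in SH Sham, 9120 to 9840 in SH SNA, 9600 to 9790 in EE Sham and 9300 to 9630 in EE + SNA. Of 5 Schwann cell markers, 0 passed in SH or in EE in edgeR's quasi-likelihood test and 2 and 5 were higher at the unadjusted threshold, while all 5 rose past the adjusted threshold over both housings. They summed to 6970 to 8480 CPM in SH Sham and 7430 to 10800 in SH SNA, which overlapped, and to 6260 to 8570 CPM in EE Sham and 8990 to 11700 in EE + SNA. Of 5 satellite glia markers, 2 rose in SH (Glul and Cdh19) and 1 in EE (Glul), and of 8 macrophage markers 1 (Itgam) rose in SH and 0 in EE, where 4 were higher at the unadjusted threshold in edgeR's test. Over both housings 2 satellite glia and 4 macrophage markers rose past the adjusted threshold, and 0 fell. Satellite glia markers summed to 2270 to 2470 CPM in SH Sham, 2310 to 2630 in SH SNA, 2000 to 2330 in EE Sham and 2290 to 2460 in EE + SNA, and macrophage markers to 62.3 to 65.6, 69.6 to 89.5, 51.6 to 66.3 and 70.1 to 95.4 CPM. Their part in the changes of Bcl2 and Map3k13 was not tested.

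Bax, the pore-forming effector, lies on chr7:45461697-45466898 (minus strand). It was at 19.2, 20.8 and 19.4 CPM in SH Sham, 21.3, 23.5 and 20.3 in SH SNA, 16.4, 22.1 and 18.6 in EE Sham, and 19.9, 21.3 and 21.8 in EE + SNA. The groups overlapped within each housing. Its log2 fold change was 0.13 in SH (95% interval -0.064 to 0.33) and 0.13 in EE (95% interval -0.12 to 0.38), and over both housings 0.14 (SE 0.07, unadjusted p = 0.0713 in edgeR's test). Of its 1576 exon bases, 192 are shared with Gm45808 on the same strand.

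The ratio of Bax to Bcl2, taken per sample from FPKM, combines a gene that did not pass with a gene that fell. It was 2.54, 2.75 and 2.51 in SH Sham and 3.57, 3.99 and 3.29 in SH SNA. In EE Sham it was 2.06, 3.01 and 2.34, and in EE + SNA 3.23, 3.40 and 3.79. All 6 SNA samples lay above all 6 Sham samples. Bcl2 alone separated the same samples, in the other direction, so the ratio is given as a description. The means were 2.60 ± 0.13 (SD, n = 3) in SH Sham, 3.62 ± 0.36 in SH SNA, 2.47 ± 0.49 in EE Sham and 3.47 ± 0.29 in EE + SNA.

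**Figure D2:**
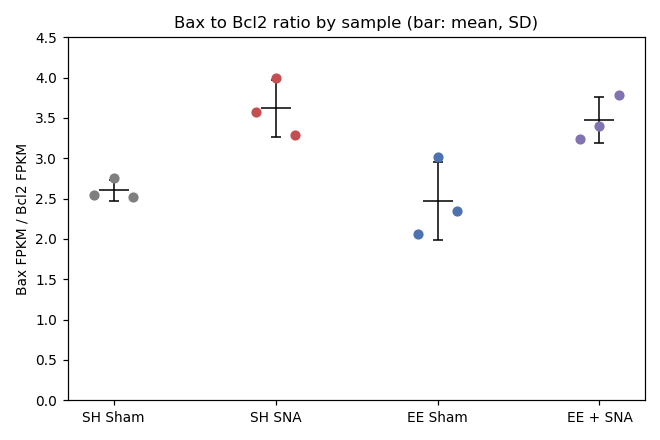
Ratio of Bax FPKM to Bcl2 FPKM (vertical axis, no unit, from 0) in each of the 12 samples by group, with the mean as a bar and the SD as whiskers. The SNA samples lie at 3.23 to 3.99 and the Sham samples at 2.06 to 3.01.

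Sarm1, the NAD-cleaving executioner of axon degeneration, was at 37.3, 43.5 and 45.9 CPM in SH Sham, 44.4, 45.0 and 44.7 in SH SNA, 43.4, 38.2 and 42.6 in EE Sham, and 42.1, 45.3 and 45.2 in EE + SNA. SNA and Sham samples overlapped in both housings. The log2 fold change was 0.09 in SH (95% interval -0.089 to 0.26) and 0.09 in EE (95% interval -0.067 to 0.25), and neither passed either threshold.

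Ecel1 had the highest fold change of the 9 in SH. The gene lies on chr1:87147655-87156521 (minus strand), and no motif of those searched was found in its promoter. It was at 4.22, 5.74 and 6.35 CPM in SH Sham and at 11.9, 9.72 and 7.08 CPM in SH SNA. All 3 SNA samples were above the Sham samples, with a wide spread among them. Ecel1 rose by 0.82 on the log2 scale (SE 0.20, 95% interval 0.40 to 1.25), with an adjusted p of 0.0172 in edgeR's quasi-likelihood test. The call was lost without SH SNA replicate 1 (log2 fold change 0.63, adjusted p = 0.0819) and without SH Sham replicate 1 (0.65, adjusted p = 0.0747). Without SH SNA replicate 2, which held the muscle genes, the log2 fold change was 0.81 (adjusted p = 0.0352). In EE it was at 4.15, 4.86 and 5.44 CPM in Sham and at 5.61, 5.53 and 7.74 CPM after SNA. These groups did not overlap, but by a narrow margin, and the log2 fold change of 0.36 (95% interval -0.035 to 0.76) did not pass (adjusted p = 0.288). Without EE + SNA replicate 3, the highest of the 3 and the library with the neutrophil genes, it was 0.20 (adjusted p = 0.646). Over both housings it was 0.61 (SE 0.15), with an adjusted p of 0.0069. That call was kept without SH SNA replicate 2 (log2 fold change 0.58, adjusted p = 0.0158) and without EE + SNA replicate 3 (0.56, adjusted p = 0.0167).

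**Figure D3:**
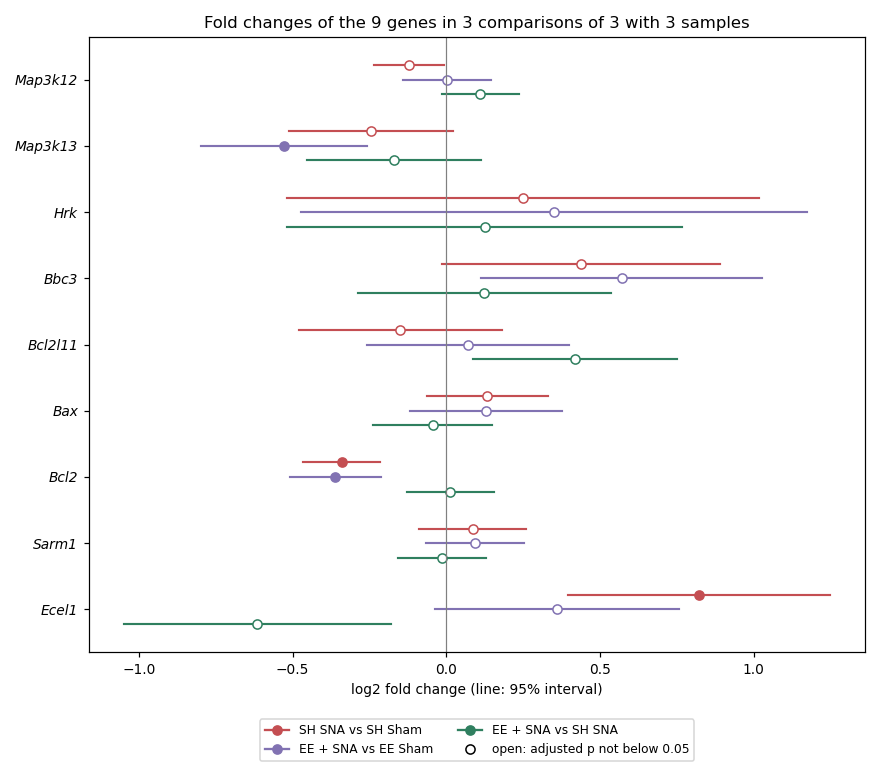
Log2 fold change of each of the 9 genes (horizontal axis) in SH SNA against SH Sham, EE + SNA against EE Sham and EE + SNA against SH SNA, with 95% intervals as lines and open points where the adjusted p was not below 0.05. Filled points are Bcl2 in both comparisons with Sham, Ecel1 in SH at 0.82 and Map3k13 in EE at -0.53.

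After housing alone, in EE Sham against SH Sham, 0 of 9 passed at the adjusted or the unadjusted threshold in edgeR's quasi-likelihood test, nor in its likelihood ratio test, DESeq2 or limma. The log2 fold changes ran from -0.16 for Ecel1 to 0.19 for Bcl2l11, which had the smallest unadjusted p (0.247). Of all genes, 0.00616% (1 gene) passed the adjusted threshold and 2.97% the unadjusted one in the quasi-likelihood test. In this comparison deviations from the group mean correlated at 0.331, 0.137 and 0.111 between samples with the same number. EE Sham replicate 2 and SH Sham replicate 3, of unlike number, were at 0.194, so a pairing by number is not shown. A fit with a replicate block called 29 genes at the adjusted threshold, of which none was among the 9.

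Housing after axotomy was compared directly in EE + SNA against SH SNA. None of the 9 passed the adjusted threshold in edgeR's quasi-likelihood test, in its likelihood ratio test, in DESeq2 or in limma, and 0% of all genes did in the first of these. At the unadjusted threshold 2 of 9 were called by both edgeR tests and by limma on log2(FPKM + 1), and 1 of 9 by DESeq2 and by limma on log2(FPKM + 0.1). In the quasi-likelihood test 4.1% of all genes were called at that threshold. Ecel1 was lower in EE + SNA, at 5.53 to 7.74 CPM against 7.08 to 11.9 CPM, ranges that overlapped. Its log2 fold change was -0.61 (SE 0.20, 95% interval -1.05 to -0.18), with an unadjusted p of 0.00978 and an adjusted p of 0.989. Without SH SNA replicate 1 the unadjusted p was 0.0661. Bcl2l11 was higher in EE + SNA, at 5.61 to 6.69 CPM against 4.14 to 4.89 CPM, by a log2 fold change of 0.42 (SE 0.15, unadjusted p = 0.0175, adjusted p = 0.989). Without SH SNA replicate 2, the library with the muscle genes, its unadjusted p was 0.0677. Bcl2l11 and Map3k12 were the 2 of 9 whose groups did not overlap, as did 10.4% of all genes.

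Whether SNA acted differently in the housings was tested as the interaction of housing and surgery over all 12 samples. None of the 9 passed the adjusted or the unadjusted threshold in edgeR's quasi-likelihood test, its likelihood ratio test, DESeq2 or limma. In the first of these, 0% of all genes passed the adjusted threshold and 2.61% the unadjusted one. The smallest unadjusted p was 0.116, for Map3k12, whose response differed by 0.13 on the log2 scale. For Ecel1 the difference was -0.45 (95% interval -1.06 to 0.16, unadjusted p = 0.138). It was -0.63 without SH SNA replicate 3 (unadjusted p = 0.0332) and -0.62 without EE + SNA replicate 3 (unadjusted p = 0.0461), and that of Map3k13 was -0.39 without EE Sham replicate 2 (unadjusted p = 0.0427), all in edgeR's quasi-likelihood test, and in none did the adjusted p pass. The rise of Ecel1 in SH and its smaller value in EE were therefore not shown to differ.

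In the study's own comparison of EE + SNA with SH Sham, which shares its controls with the comparison of SH SNA, 2 of 9 passed the adjusted threshold against 12.5% of all genes. These were Bcl2 at a log2 fold change of -0.33 (SE 0.061, adjusted p = 0.0043) and Map3k13, given above. At the unadjusted threshold 3 of 9 passed against 27.2%, with Bbc3 higher by 0.56 (SE 0.20, adjusted p = 0.0896). Ecel1 had a log2 fold change of 0.20 here (95% interval -0.20 to 0.61), beside 0.82 in SH SNA.

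The other genes of these pathways were taken from 11 lists of 105 genes, of which 97 were tested. The lists were also chosen with earlier results known, so their counts are a description. After SNA in SH, 16 of the 97 rose and 3 fell past the adjusted threshold, beside 11.2% of all genes called, with a median log2 fold change of 0.04 beside 0.0046 for all genes. In EE, 13 rose and 1 fell, beside 4.83% of all genes, with a median of 0.04 beside 0.0039. Over both housings 25 rose and 13 fell, beside 22.4% of all genes, with a median of 0.03 beside 0.0071. The count in EE dropped from 14 to 6 without EE Sham replicate 3 or EE + SNA replicate 1 and to 9 without EE Sham replicate 1 or EE + SNA replicate 3.

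Around DLK, the upstream kinases Tnik (log2 fold change 0.64) and Map4k4 (0.25) rose in SH, 2 of the 8 upstream regulators tested, while the other 6 did not pass. In EE, Tnik rose by 0.42 on the log2 scale. Of 10 other MAP3Ks, Map3k5 (ASK1, a stress kinase) fell by 0.51 in SH and by 0.37 in EE on the log2 scale, at 31.4 to 32.7 CPM in SH Sham and 19.2 to 24.8 CPM in SH SNA. Map3k10, a mixed lineage kinase, fell by 0.24 and Map3k6 rose by 0.63 on the log2 scale in SH. Of the 15 genes of the JNK and p38 modules, Mapk14 (p38 alpha) rose in SH (0.35) and in EE (0.29), and Map2k6, a kinase that activates p38, fell by 0.76 on the log2 scale in SH. The JNK genes Mapk8, Mapk9 and Mapk10 did not pass the adjusted threshold in either housing, at log2 fold changes of -0.20 to 0.04. In EE, Mapk10 was lower at the unadjusted threshold (unadjusted p = 0.0204 in edgeR's quasi-likelihood test). Over both housings 1 of the 15 genes of these modules rose and 3 fell past the adjusted threshold.

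Of 12 transcription factors downstream of this signal, 6 rose and 0 fell past the adjusted threshold in each housing. The 6 differed by 1 gene, Atf4 in SH and Jund in EE, both named after their values were seen. The other 6 had log2 fold changes from -0.18 to 0.24 in SH and from -0.08 to 0.33 in EE. Atf3 rose by 2.12 on the log2 scale in SH and 1.71 in EE, Sox11 by 1.45 and 1.20, Klf6 by 0.92 and 0.81, and Jun, the main JNK target, by 0.69 and 0.67. Jun was at 129.0 to 141.0 CPM in Sham samples and at 204.7 to 225.6 CPM in SNA samples. Atf3 and Sox11 are genes known to mark axotomy, and their choice with earlier results in view makes this count a description.

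Among death genes beyond the 9, Pmaip1 (NOXA, a BH3-only gene and p53 target) had the largest change, at 4.08 to 6.01 CPM in Sham and 8.83 to 12.7 CPM in SNA. It rose by 1.36 on the log2 scale in SH (SE 0.13, adjusted p = 4.49e-05) and by 1.03 in EE (SE 0.17, adjusted p = 0.0043). It was the 1 of 6 other BH3-only genes tested that passed the adjusted threshold in either housing. Over both housings 1 of these 6 rose and 2 fell past it. Of 14 genes of the apoptosome, caspases and their inhibitors, 2 rose in SH, namely Casp6 (0.63) and Apaf1 (0.43), and 1 rose in EE, Casp6 (0.58). The 3 other pro-survival genes tested and the other 2 pore-forming genes did not pass the adjusted threshold in either housing. Over both housings 1 of these 3 and 1 of these 2 rose past it, and 0 fell. Cdkn1a, the p53 target that halts the cell cycle, rose by 0.92 in SH and 0.66 in EE on the log2 scale. It was the 1 of 9 genes of the p53 and FOXO list that passed in either housing. Over both housings 2 of these 9 rose and 1 fell past the adjusted threshold.

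In the list around SARM1 and NAD, 2 of 13 genes rose in each housing. They were Cd38, another NAD-consuming enzyme, by 0.74 in SH and 0.63 in EE on the log2 scale, and Tnfrsf21 (DR6, a receptor tied to axon degeneration), by 0.28 and 0.25. Over both housings 4 of the 13 rose and 2 fell past the adjusted threshold. Of the 5 other neprilysin family genes tested beside Ecel1, none passed the adjusted threshold in SH or in EE, and 1 rose past it over both housings.

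Several of these calls rested on single libraries. In SH, the adjusted p of Map3k10 reached 0.0947 and its call was lost without replicate 1 or 3 of either group. That of Map3k6 reached 0.125 and was lost without SH Sham replicate 1 or 3 or SH SNA replicate 3. Map2k6 (up to 0.0648) lost its call without SH Sham replicate 2 or 3 or SH SNA replicate 1 or 2, Casp6 (up to 0.0545) without SH SNA replicate 1 or 2, and Apaf1 (0.0591) without SH Sham replicate 1. In EE, the calls of Mapk14 (adjusted p up to 0.104) were lost without any 1 of the 6 samples. Those of Casp6 (0.124) and Cd38 (0.129) were lost without any 1 but EE + SNA replicate 2, and that of Tnfrsf21 (0.199) without any 1 but EE Sham replicate 1. Tnik (0.129) lost its call without EE Sham replicate 2 or 3 or EE + SNA replicate 1 or 3, and Map3k5 (0.0861) without EE Sham replicate 3 or EE + SNA replicate 1. The 4 transcription factors named, Pmaip1 and Cdkn1a kept their calls in both housings with each sample left out in turn.

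**Figure D4:**
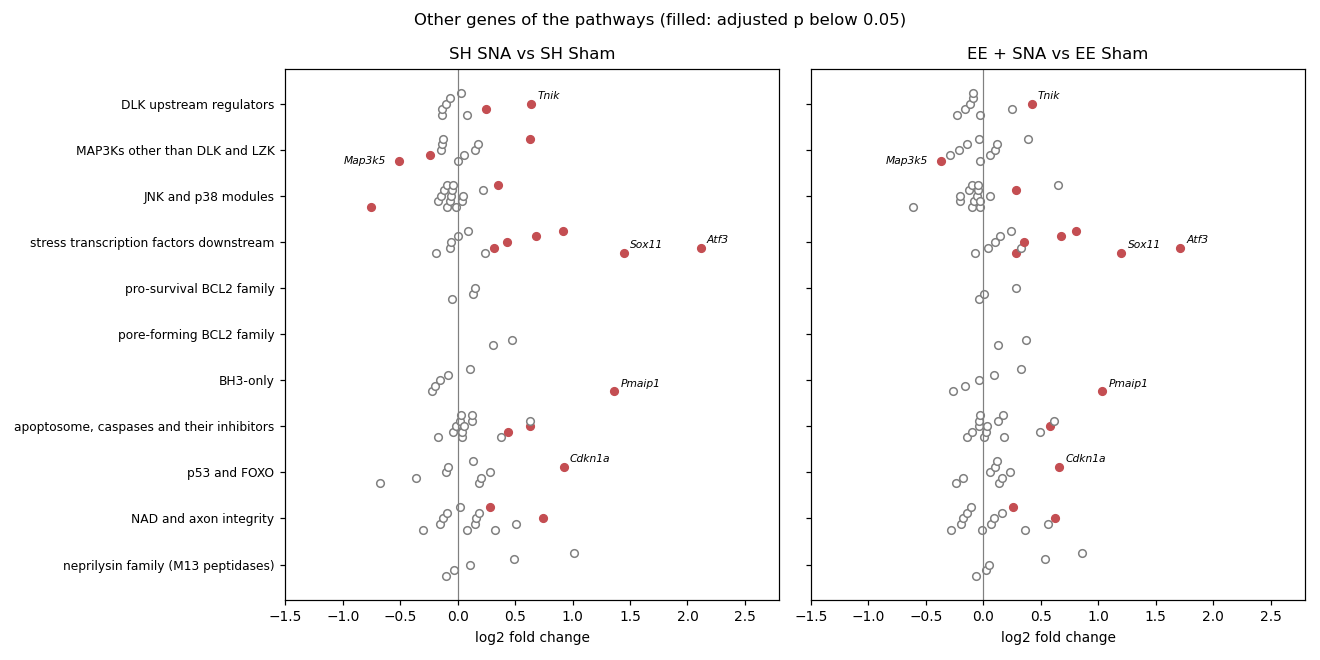
Log2 fold change (horizontal axis) of each tested gene of the 11 pathway lists (rows) after SNA in SH, left, and in EE, right. Filled points passed the adjusted threshold, 19 in SH and 14 in EE, and Atf3 lies farthest to the right in both, at 2.12 and 1.71.

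The genes whose level across the 12 samples was most like that of Bcl2 were Ttc30b (Pearson r = 0.98), Rnf19a (0.979) and Wipf3 (0.979). For Ecel1 they were Tmem206 (0.925), C330018A13Rik (0.915) and Sdc1 (0.896). These correlations are over log2 CPM of 12 samples that share 4 groups, and are given as a description.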

How the data were processed

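RNA of 12 pools of sciatic DRG was sequenced. Per the submitters' processing notes, TopHat2 2.0.12, Bowtie2 2.2.3 and HTSeq 0.6.0 were used with mm10, and the authors deposited whole read counts per gene name, not normalized, and FPKM. In R 4.3.3, counts were filtered with filterByExpr (minimum 10, total 15), scaled by TMM and tested in edgeR 4.0.16 (glmQLFit, glmQLFTest, two-sided), each pair of groups on its 6 samples, and the interaction and the surgery term on all 12. P-values were adjusted by the Benjamini-Hochberg method over 16238 genes, with 0.05 as the threshold. The unadjusted 0.05 is the study's threshold, which the study applied to a likelihood ratio test. CPM used TMM over 12 samples. The models were tested on simulated data. Genes named were the 9, up to 4 called genes per list with the largest change, and 3 correlated genes for each member called in SH. The members and lists were chosen with earlier results of these data known. A gene of the pathway lists is not reported here and is left out of their counts.

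Deviations of same-numbered samples correlated at 0.331, 0.137 and 0.111 between EE Sham and SH Sham, where EE Sham replicate 2 and SH Sham replicate 3 reached 0.194. In EE + SNA against SH SNA same-numbered samples were at 0.0573, 0.113 and 0.126, and unlike numbers reached 0.0403. In every comparison but the first at least 1 same-numbered pair was below 0.1. Whether the numbers pair is not known, so a replicate block was used as an alternative only. Each sample was treated as 1 replicate, and p-values measure the spread between pools. Alternatives were the likelihood ratio test, DESeq2 1.42.0, library size only, other filters, 1 fit of 12, a replicate block, limma 3.58.1 on log2 FPKM with a pseudocount of 1 or 0.1, and each sample left out.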

Additional observations from a re-analysis of the deposited data

How the results depend on the processing

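For the 9 genes over the 7 comparisons, 526 of 539 values under alternatives that kept all samples had the same direction and side of the threshold as reported. The other 13 comprised 8 that lost the call, 1 that gained it and 4 that reversed. After SNA in SH, 1 gene instead of 2 passed the adjusted threshold with a replicate block, where Ecel1 had an adjusted p of 0.0582, and in limma on log2(FPKM + 1) or log2(FPKM + 0.1), and 5 instead of 3 passed the unadjusted threshold without a filter. In EE + SNA against EE Sham, 1 passed with the replicate block (Map3k13 at an adjusted p of 0.0583) and in both limma fits, and in EE + SNA against SH Sham 1 passed in both limma fits and 3 without a filter, where Bbc3 gained the call (adjusted p = 0.0487). The replicate block changed no other call of the 9 at the adjusted threshold. In EE + SNA against SH SNA, 1 instead of 2 passed the unadjusted threshold in DESeq2 and in limma on log2(FPKM + 0.1). The log2 fold change of Hrk between EE Sham and SH Sham reversed to -0.0025 with the block, -0.0025 in limma on log2(FPKM + 1) and -0.016 on log2(FPKM + 0.1), and the interaction of Bax to -0.0016 in DESeq2; the cause was not tested.

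Leaving out 1 sample at a time kept direction and side of the threshold in 425 of 486 values of the 9 genes, lost the call in 14 and reversed 47, none of which was past the threshold as reported. The count past the adjusted threshold then ran from 1 to 2 in SH SNA against SH Sham and in EE + SNA against SH Sham, from 0 to 2 in EE + SNA against EE Sham (0 without EE Sham replicate 3), and from 3 to 4 over both housings. The count past the unadjusted threshold ran from 2 to 5 in SH SNA against SH Sham, from 1 to 3 in EE + SNA against SH SNA and from 0 to 1 in the interaction. The pathway genes called in EE, 14 as reported, ran from 6 to 14, and were 9 with all samples in limma on log2(FPKM + 0.1). Log2 fold changes that crossed 0 ranged, in SH SNA against SH Sham, from -0.0052 to 0.15 for Sarm1. In EE + SNA against SH Sham they ranged from -0.062 to 0.017 for Map3k12 and -0.0196 to 0.13 for Sarm1. In EE Sham against SH Sham they ranged from -0.042 to 0.0054 for Map3k12, -0.43 to 0.39 for Hrk, -0.22 to 0.18 for Bbc3, -0.18 to 0.048 for Bax and -0.11 to 0.034 for Sarm1. In EE + SNA against SH SNA they ranged from -0.012 to 0.297 for Hrk, -0.0029 to 0.29 for Bbc3, -0.089 to 0.012 for Bax, -0.012 to 0.047 for Bcl2 and -0.033 to 0.012 for Sarm1. In EE + SNA against EE Sham they ranged from -0.039 to 0.023 for Map3k12, -0.019 to 0.15 for Bcl2l11 and -0.015 to 0.0801 for Apaf1. For the interaction they ranged from -0.27 to 0.56 for Hrk, -0.058 to 0.34 for Bbc3, -0.098 to 0.13 for Bax, -0.0504 to 0.018 for Bcl2 and -0.049 to 0.094 for Sarm1, and over both housings from -0.085 to 0.0068 for Bcl2l11. Hrk has no value under the filter of 10 counts in every sample, which removes it.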
